A study of Mus musculus with 6 samples.

Results

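Cortical layer identity genes were read in 6 cortical libraries as a measure of which neurons, and how much of each cortical layer, went into each library. The set held 9 genes, found by exact match of the gene name in the count table and in the FPKM table, out of 51826 genes listed and 18345 tested. Cux1, Cux2, Rorb and Rasgrf2 mark upper layers, and Etv1, Fezf2, Bcl11b, Foxp2 and Tle4 mark deep layers. Each gene name matched 1 row, and all 9 genes passed the filter on low counts. The libraries came from polyA RNA of the cortex of male BALB/c mice, 6 to 8 weeks of age, collected on day 3 after whole-brain X-ray irradiation with 10 Gy. The 3 Lgmn+/+-IR libraries came from irradiated wild-type mice and the 3 Lgmn-/--IR libraries from irradiated mice labelled as knockouts of Lgmn, the gene of asparagine endopeptidase (AEP). Per the study's methods, the knockout line was derived from a positive embryonic stem cell clone, and Lgmn-/- mice carried the floxed allele on both chromosomes together with Cre, whose driver is not given in the sources used here. All mice were irradiated and libraries of sham mice were not analysed here, so each comparison is between genotypes after irradiation. The series design counts 3 mice per genotype, and the p-values given here measure the spread between these 3 samples.

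The neocortex is built of layers whose excitatory neurons are born in turn and send their axons to different targets. Upper layer neurons project mostly within the cortex and across the corpus callosum, layer 4 receives thalamic input, and deep layer neurons project to the brainstem, spinal cord, striatum and thalamus. The layer genes are mostly transcription factors that set these identities during development and remain in adult neurons. Several of them also work outside the cortex, and Bcl11b and Foxp2 are expressed in the projection neurons of the striatum, which lies directly beneath the cortex.

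Total counts ranged from 41874462 to 46829441 per library. Lgmn had 5558, 5528 and 5775 counts in Lgmn+/+-IR replicates 1, 2 and 3 and 3703, 3269 and 4109 in Lgmn-/--IR replicates 1, 2 and 3, and each library of the second genotype was below each of the first. The mean was 129 ± 1.66 against 82.5 ± 11.6 CPM (counts scaled to library size by edgeR's TMM factors, SD, n = 3), so Lgmn reads were lower but not absent in the libraries labelled knockout. The counts are per gene and cannot tell reads of the deleted part from reads of the rest, so they check the label only in part, and "knockout" and Lgmn-/--IR below refer to the label. The cortical excitatory markers Slc17a7, Neurod2, Nrgn and Emx1 were present in every library, with Slc17a7 between 1014 and 1410 CPM. Striatal genes set libraries apart. The summed level of 18 striatal genes was 2806 CPM in Lgmn+/+-IR replicate 3, 2575 CPM in Lgmn-/--IR replicate 1 and 1613 CPM in Lgmn+/+-IR replicate 2, against 701, 658 and 605 CPM in Lgmn+/+-IR replicate 1, Lgmn-/--IR replicate 3 and Lgmn-/--IR replicate 2. None of the 18 genes was at 0 in all libraries, and the libraries with high sums came from both genotypes. Red blood cell genes differed by genotype, with a summed level of 7.59 to 15.8 CPM in Lgmn+/+-IR and 234 to 2273 CPM in Lgmn-/--IR.

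The 9 genes lie at the following places in GRCm38. Cux1 (chr5:136248135-136567490) and Cux2 (chr5:121856366-122050102) encode homeodomain factors and are both on the minus strand of chromosome 5. Rorb (chr19:18930605-19111196) and Tle4 (chr19:14448150-14598051) are both on the minus strand of chromosome 19. Rasgrf2 (chr13:91880400-92131656) and Fezf2 (chr14:12342094-12348189) are on minus strands, and Foxp2 (chr6:14901349-15441977) is on the plus strand. Etv1 (chr12:38779380-38870484, plus strand) and Bcl11b (chr12:107910403-108003602, minus strand) share chromosome 12 with Lgmn, at distances of 63.5 and 5.47 Mb. No other annotated transcript had 95% identity to a transcript of any of the 9 genes over 80% of its length. At that identity Etv1 shared a shorter stretch of 1453 bases (22.1% of its transcript) with Gm5454, and Cux1 395 bases (3.1%) with Gm16599. Whether reads of Etv1 were affected was not tested. Genes that overlap Cux1, Cux2 and Foxp2 had at most 4 counts in any library.

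The starts of 4 of these genes are shown, which are those where the 250 bases before the first RefSeq start hold no annotated exon. The window of Etv1 lies inside the span given above for Etv1, which begins at 38779380, so it is not upstream of the GENCODE start. Rorb and Rasgrf2 are upper layer genes with a like order of libraries below, and Etv1 and Tle4 are deep layer genes without it. The sequences are from RefSeq (GRCm38.p6), 5′ to 3′ on the strand of each gene (plus for Etv1, minus for the others), and capitals mark the GC box GGGCGG or its reverse CCGCCC.
Rorb (chr19:19111197-19111446): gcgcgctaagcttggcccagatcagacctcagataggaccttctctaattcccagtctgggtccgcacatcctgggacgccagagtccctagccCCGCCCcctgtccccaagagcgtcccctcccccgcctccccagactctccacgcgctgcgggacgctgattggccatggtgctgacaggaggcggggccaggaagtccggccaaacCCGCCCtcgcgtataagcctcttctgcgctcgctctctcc
Rasgrf2 (chr13:92131829-92132078): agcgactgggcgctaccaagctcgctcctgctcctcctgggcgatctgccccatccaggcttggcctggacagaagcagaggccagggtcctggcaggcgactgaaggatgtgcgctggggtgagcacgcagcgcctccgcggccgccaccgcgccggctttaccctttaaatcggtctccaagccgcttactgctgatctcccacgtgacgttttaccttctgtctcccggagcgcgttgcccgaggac
Etv1 (chr12:38779832-38780081): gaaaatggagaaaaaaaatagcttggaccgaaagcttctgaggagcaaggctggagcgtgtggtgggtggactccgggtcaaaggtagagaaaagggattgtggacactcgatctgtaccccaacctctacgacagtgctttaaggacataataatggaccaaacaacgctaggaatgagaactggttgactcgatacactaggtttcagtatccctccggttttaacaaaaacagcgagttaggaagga
Tle4 (chr19:14598184-14598433): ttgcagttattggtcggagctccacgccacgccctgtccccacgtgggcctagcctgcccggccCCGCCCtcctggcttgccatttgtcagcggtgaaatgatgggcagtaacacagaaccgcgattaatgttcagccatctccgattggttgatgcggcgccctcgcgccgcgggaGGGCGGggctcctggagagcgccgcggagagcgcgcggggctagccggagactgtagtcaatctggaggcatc
The windows of Rorb, Rasgrf2, Etv1 and Tle4 held 66.0%, 65.2%, 46.4% and 65.2% G and C, against a median of 52.4% over the 32851 RefSeq promoter windows of the same length. They held 18, 22, 9 and 24 CG dinucleotides against a median of 6, and 19.7%, 13.3%, 37.8% and 10.7% of all windows held more. The GC box was found 2 times in Rorb, 2 times in Tle4 and 0 times in Rasgrf2 and Etv1, and 32.7% of all windows hold at least 1 on either strand. The CCAAT box was found 1 time in Rorb and 2 times in Tle4, against 33.8% of all windows with at least 1, and neither TATAAA (12.4% of windows) nor CAGATG (14.4%) was found in the 4. The matches are descriptions of these letters, not binding sites.

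Per length of transcript, the upper layer genes Rasgrf2, Cux2 and Cux1 stood highest and Foxp2 lowest. Levels between genes are given as FPKM (fragments scaled to transcript length and to the fragments mapped), which the authors computed. Rasgrf2, an exchange factor for Ras and Rac found in layer 2/3 neurons, had a median of 32.4 FPKM over the 6 libraries (26.7 to 38.9). Cux2 had 20.98 FPKM (17.7 to 27.8) and Cux1 18.5 FPKM (15.6 to 19.1). The deep layer genes Fezf2, Etv1 and Bcl11b followed closely, with medians of 13.1, 12.8 and 12.3 FPKM. Tle4 had 10.2 FPKM (7.18 to 12.5), Rorb 4.08 FPKM (3.55 to 4.74) and Foxp2 2.26 FPKM (1.69 to 4.68). The ranges of neighbours in this order overlapped, except between Tle4 and Rorb, where Tle4 was higher in 6 of 6 libraries. Rasgrf2 also exceeded Cux2 in 6 of 6 libraries although their ranges overlap, while Fezf2 exceeded Etv1 in 3 of 6 and Etv1 exceeded Bcl11b in 3 of 6, so the order among these deep layer genes differs from library to library.

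**Figure D1:**
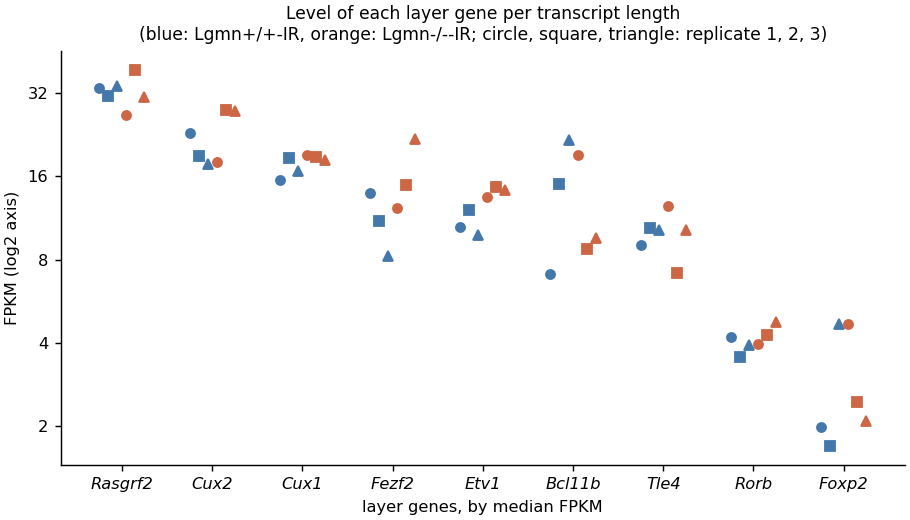
FPKM of each layer gene (log2 axis) in the 6 libraries, ordered by median, with blue for Lgmn+/+-IR, orange for Lgmn-/--IR and a marker shape per replicate. Rasgrf2 leads at a median of 32.4, Foxp2 is lowest at 2.26, and Bcl11b spreads from 7.09 to 21.7 across libraries of both genotypes.

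Between genotypes, none of the 9 layer genes differed past an adjusted p of 0.05 by edgeR's quasi-likelihood test, where 3.33% of all genes tested did (1.65% higher and 1.68% lower in Lgmn-/--IR). In the same test 2.06% of genes had in addition an absolute log2 fold change over 1, and 0 of the 9. At an unadjusted p under 0.05 the count was 0 of 9 against 18.6% of all genes, while DESeq2 gave 2 and limma on log2(FPKM + 1) gave 1. Cux2, Etv1 and Fezf2 had an unadjusted p under 0.1, and all 3 had higher means in Lgmn-/--IR. Among all genes 27.4% reached that level and 13.5% did so in that direction. In 0 of 9 genes were the 3 Lgmn-/--IR libraries all above or all below the Lgmn+/+-IR libraries, which held for 12.4% and 13.3% of all genes tested. The estimate was above 0 for 8 of the 9, against 48.3% of all genes, with intervals that include 0 for each. Scaling to pan-neuronal genes moved the median of all genes from -0.01 to -0.17 and turned the estimates of Cux1, Rasgrf2 and Tle4 below 0, and the medians of lists given here are before that shift. In bulk tissue, fewer cells of a type and less RNA per cell cannot be told apart.

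Among the upper layer genes, Cux1 was nearly level and Cux2 varied most. Cux1 was 80.3, 82.9 and 82.9 CPM in Lgmn+/+-IR and 87.7, 81.8 and 90.3 CPM in Lgmn-/--IR (replicates 1, 2 and 3 in each, as in the sentences below). The highest library was thus 1.12-fold the lowest, and the log2 fold change between genotypes was 0.08 (95% interval -0.11 to 0.27, adjusted p = 0.660). Cux1 is transcribed in many cell types besides upper layer neurons.

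Cux2, which is more restricted to upper layer neurons, was 122, 101 and 94.6 CPM in Lgmn+/+-IR and 106, 148 and 167 CPM in Lgmn-/--IR. Replicates 2 and 3 of Lgmn-/--IR were the highest of all, while replicate 1 lay within the Lgmn+/+-IR range. The means were 106 ± 14.6 and 140.5 ± 31.4 CPM (SD, n = 3), a log2 fold change of 0.41 (standard error 0.18, 95% interval -0.02 to 0.83, adjusted p = 0.292 by edgeR). Without Lgmn-/--IR replicate 1 it was 0.57 (adjusted p = 0.121), and without Lgmn-/--IR replicate 3 it was 0.26 (adjusted p = 0.613).

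Rorb, a nuclear receptor of layer 4 neurons, was 43.5, 36.5 and 41.1 CPM in Lgmn+/+-IR and 41.0, 43.4 and 53.3 CPM in Lgmn-/--IR. Only Lgmn-/--IR replicate 3 lay above the other genotype's range. The log2 fold change was 0.18 (95% interval -0.12 to 0.49, adjusted p = 0.496). Rasgrf2 was 170.3, 156 and 159 CPM in Lgmn+/+-IR and 142, 195 and 172 CPM in Lgmn-/--IR, so that the knockout libraries held both the lowest and the highest value. Its log2 fold change was 0.07 (95% interval -0.23 to 0.36, adjusted p = 0.811), and with FPKM in place of counts its sign turned, to -0.044.

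Among the deep layer genes, Fezf2 had the largest estimate, and Bcl11b and Foxp2 had the widest ranges within each genotype. Fezf2, a zinc finger factor that specifies neurons projecting to the brainstem and spinal cord, was 36.0, 28.2 and 21.5 CPM in Lgmn+/+-IR and 32.3, 37.8 and 61.2 CPM in Lgmn-/--IR. Lgmn-/--IR replicate 3 was far above all other libraries, and the other 2 replicates lay in or just above the Lgmn+/+-IR range. The log2 fold change was 0.62 (standard error 0.28, 95% interval -0.04 to 1.27, adjusted p = 0.292). Without Lgmn-/--IR replicate 3 it was 0.30, so the size of the estimate rests on this library.

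Etv1 (Er81), an ETS factor of layer 5 neurons, was 49.6, 61.6 and 49.6 CPM in Lgmn+/+-IR and 60.3, 60.04 and 72.0 CPM in Lgmn-/--IR. Lgmn+/+-IR replicate 2 was level with the lower knockout libraries. The log2 fold change was 0.26 (95% interval -0.04 to 0.56, adjusted p = 0.333). Tle4, a Groucho corepressor of layer 6 neurons that project to the thalamus, was 45.8, 52.5 and 52.5 CPM in Lgmn+/+-IR and 65.0, 35.9 and 56.4 CPM in Lgmn-/--IR. The 3 wild-type libraries lay between the knockout values, and the log2 fold change was 0.06 (95% interval -0.43 to 0.55, adjusted p = 0.8999).

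Bcl11b (Ctip2), a zinc finger factor of layer 5 neurons and of striatal projection neurons, was 53.6, 102 and 147 CPM in Lgmn+/+-IR and 141, 60.9 and 73.3 CPM in Lgmn-/--IR. Each genotype held both low and high libraries, with a 2.75-fold range within Lgmn+/+-IR and a 2.32-fold range within Lgmn-/--IR. Only 3.30% of genes tested had ranges at least as wide in both genotypes. The log2 fold change of -0.14 had a 95% interval from -1.13 to 0.86 (adjusted p = 0.887), which allows a ratio of knockout to wild type from 0.456 to 1.81, and its sign turned without Lgmn+/+-IR replicate 3 (0.24). Foxp2, a forkhead factor of layer 6 and of the striatum, was 12.5, 9.34 and 20.8 CPM in Lgmn+/+-IR and 27.8, 11.9 and 11.9 CPM in Lgmn-/--IR. Here 1 library of each genotype stood high, and 4.36% of genes tested had ranges at least as wide in both genotypes. The log2 fold change was 0.28 (95% interval -0.70 to 1.25, adjusted p = 0.766), and without Lgmn-/--IR replicate 1 it was -0.25.

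**Figure D2:**
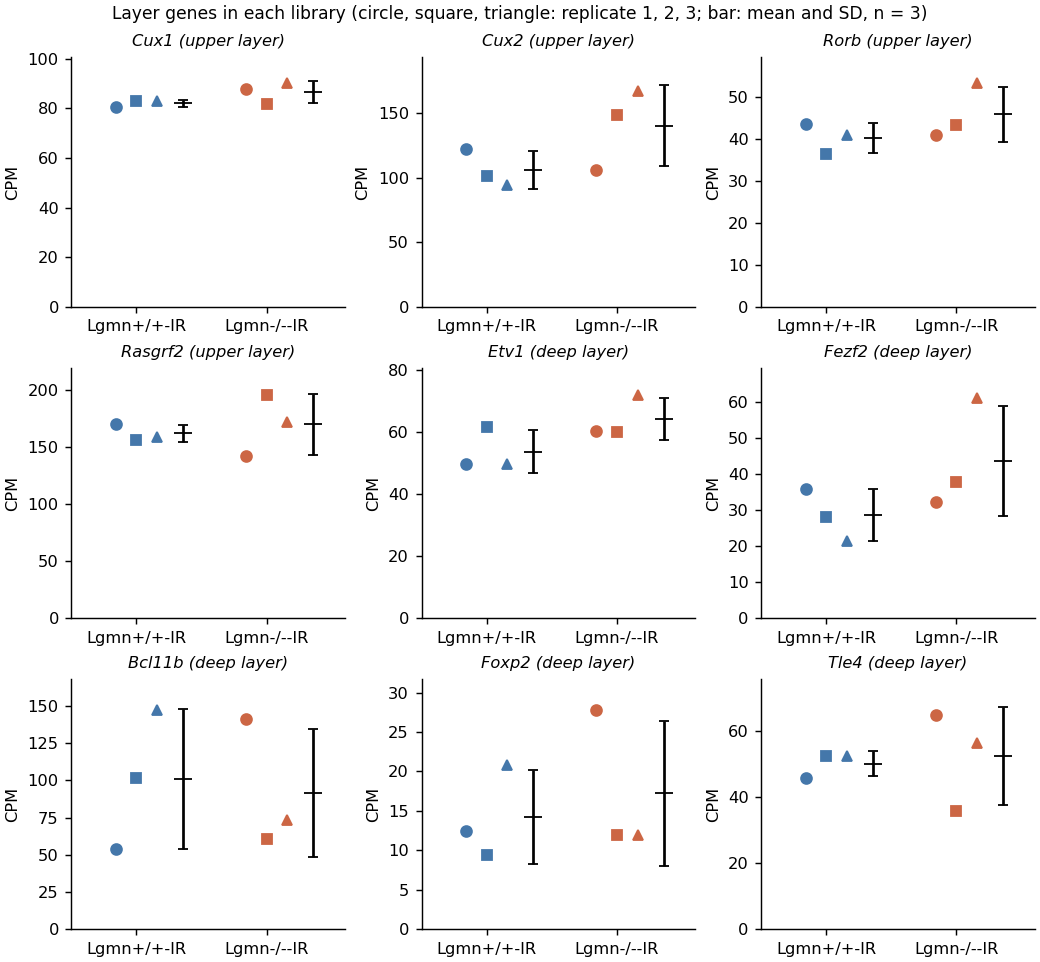
CPM of each layer gene in each library (circle, square and triangle for replicates 1, 2 and 3), with the mean and SD of 3 libraries beside each genotype and each axis starting at 0. The genotypes overlap in all 9 panels, and Bcl11b ranges from 53.6 to 147 CPM within Lgmn+/+-IR alone.

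**Figure D3:**
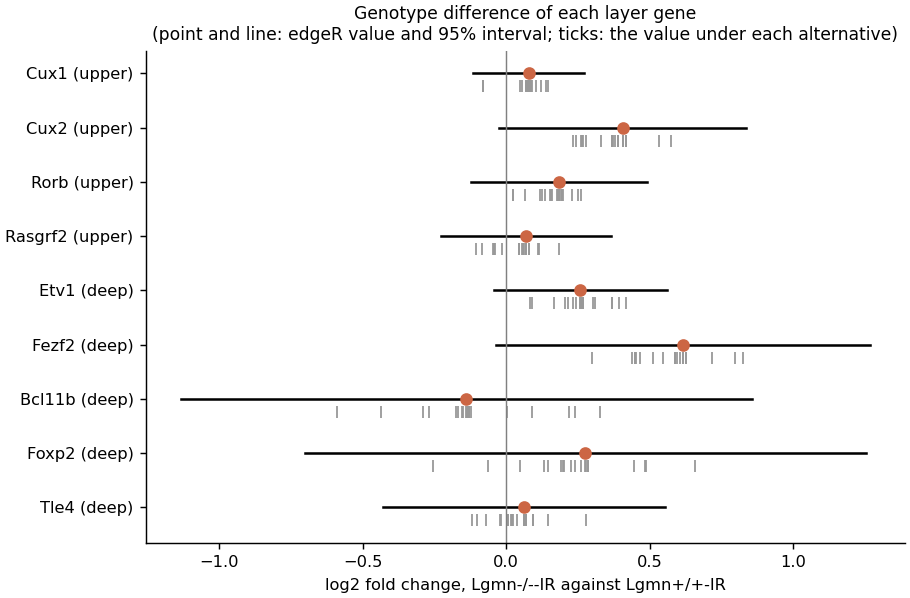
Log2 fold change of each layer gene, Lgmn-/--IR against Lgmn+/+-IR, with its 95% interval (line) and the value under each of 20 other analyses (ticks). All 9 intervals include 0, from the narrow interval of Cux1 (-0.11 to 0.27) to that of Bcl11b (-1.13 to 0.86).

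When the libraries were ordered by their striatal genes, 5 of the 9 layer genes had ranges that did not overlap between the 3 libraries at the top and the 3 at the bottom, with 1 higher and 4 lower at the top. In Lgmn+/+-IR replicates 3 and 2 and Lgmn-/--IR replicate 1, which had the highest striatal sums, 15 of the 18 striatal genes were all above the other 3 libraries. These genes make up the sum that set the order, so their count follows in part from it and is no test. Of all genes tested, 7.6% were all above in these libraries. Bcl11b showed the same order, with 102 to 147 CPM in these libraries and 53.6 to 73.3 CPM in the others. Foxp2 showed it in part. It was highest in Lgmn-/--IR replicate 1 and Lgmn+/+-IR replicate 3 and lowest in Lgmn+/+-IR replicate 2, the library with the middle striatal sum.

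Cux2, Rorb, Rasgrf2 and Fezf2 stood in the opposite order, each lower in the same 3 libraries than in the other 3, which held for 5.87% of all genes tested. Cux2 was 94.6 to 106 CPM there and 122 to 167 CPM in the others. Fezf2 was 21.5 to 32.3 CPM against 36.0 to 61.2 CPM. Rorb was 36.5 to 41.1 against 43.4 to 53.3 CPM and Rasgrf2 142 to 159 against 170.3 to 195 CPM. Cux1, Etv1, Foxp2 and Tle4 overlapped between these sets of libraries. The libraries were ordered by a measured sum, so these ranges describe them and are no test.

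**Figure D4:**
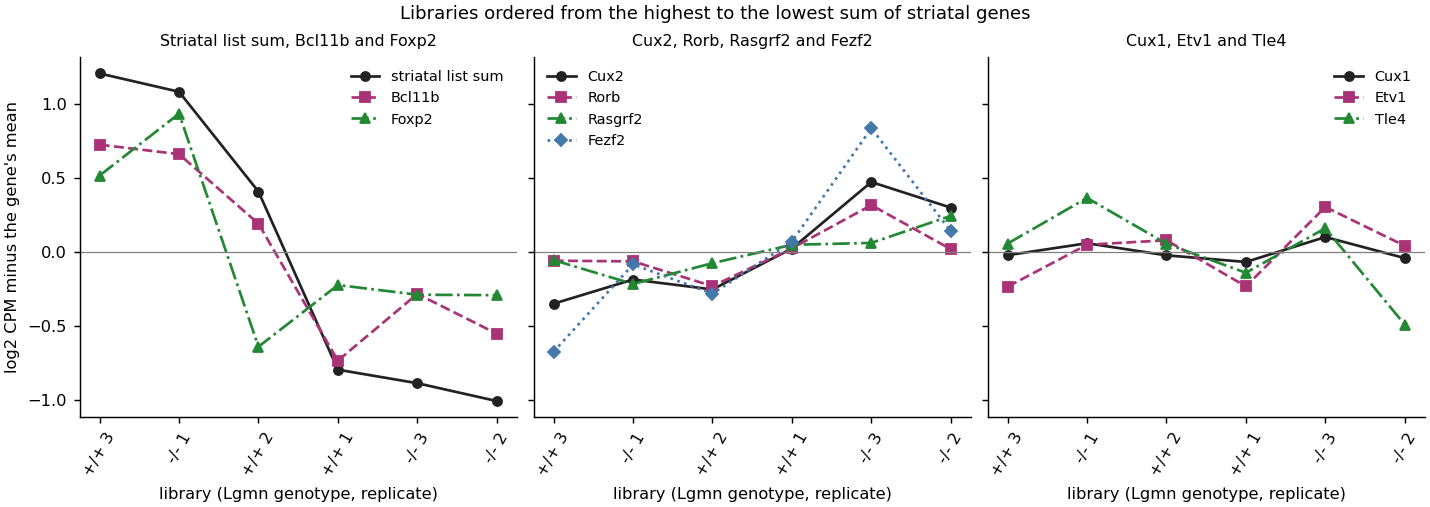
Log2 CPM minus each gene's mean over the 6 libraries, with libraries ordered from the highest striatal sum (Lgmn+/+-IR replicate 3, 2806 CPM) to the lowest (Lgmn-/--IR replicate 2, 605 CPM). Bcl11b is higher in the 3 libraries on the left than in the 3 on the right, Cux2, Rorb, Rasgrf2 and Fezf2 are lower on the left, and Cux1, Etv1 and Tle4 show no such order.

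Some excitatory and pan-neuronal genes were also lower in these libraries. Of the 10 excitatory neuron genes, 4 (Slc17a7, Neurod2, Nrgn and Emx1) were lower in all 3 than in any other library, 0 were higher and 6 overlapped. Of 18 pan-neuronal genes, 5 were all lower and 1 all higher. Of 14 inhibitory neuron genes, 1 was all lower and 5 all higher. Over all genes tested these shares were 5.87% lower and 7.6% higher. Slc17a7, the vesicular glutamate transporter of cortical excitatory neurons, was 1077, 1052 and 1014 CPM in the 3 libraries with high striatal sums and 1361, 1393 and 1410 CPM in the others. The part of striatal tissue in the differences of layer genes was not tested beyond a fit with the striatal sum as a covariate, which was chosen after the data were seen. In that fit the genotype estimate was 0.26 for Cux2 (adjusted p = 0.227), 0.45 for Fezf2 (adjusted p = 0.272) and 0.44 for Foxp2, and that of Bcl11b turned to 0.22 (adjusted p = 0.371). Without the 3 libraries with high striatal sums, 1 wild-type and 2 knockout libraries remained, and the estimate was 0.37 for Cux2, 0.46 for Fezf2 and 0.33 for Bcl11b, with no layer gene called.

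Set against Slc17a7 within each library, each upper layer gene had a narrower range than each deep layer gene. The ratio to Slc17a7 ranged over 1.25-fold for Rasgrf2, 1.27-fold for Rorb, 1.37-fold for Cux2 and 1.44-fold for Cux1, and over 1.67-fold for Etv1, 2.20-fold for Fezf2, 2.43-fold for Tle4, 3.14-fold for Foxp2 and 3.48-fold for Bcl11b. In CPM the ranges of the upper layer genes, in this order, were 1.38-, 1.46-, 1.77- and 1.12-fold. Those of the deep layer genes were 1.45-, 2.85-, 1.81-, 2.98- and 2.75-fold. Slc17a7, Rasgrf2, Rorb, Cux2 and Fezf2 were all lower in the 3 libraries with high striatal sums. The ratio thus narrows the ranges of these layer genes in part by construction, while those of Cux1, Etv1, Tle4, Foxp2 and Bcl11b widened. The log2 ratio of Cux2 was -3.47, -3.33 and -3.51 for Lgmn+/+-IR and -3.31, -3.25 and -3.06 for Lgmn-/--IR, so each knockout library lay above each wild-type library, with a difference of means of 0.23. This pattern held for 3.45% of all genes tested, and for no other layer gene. With 3 libraries against 3, an exact permutation test cannot give a two-sided p below 0.1. Slc17a7 was chosen as the reference after its values were seen.

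The balance of upper to deep layer genes overlapped between genotypes. An index was formed as the mean log2 CPM of the 4 upper layer genes minus that of the 5 deep layer genes. It was 1.39, 1.104 and 0.93 for Lgmn+/+-IR and 0.64, 1.49 and 1.22 for Lgmn-/--IR. The means were 1.14 ± 0.23 and 1.12 ± 0.43 (SD, n = 3), and the difference of -0.02 was smaller than either SD. The lowest index belonged to Lgmn-/--IR replicate 1 and the next lowest to Lgmn+/+-IR replicate 3, the libraries with the highest striatal sums. Without Bcl11b and Foxp2, the index was 1.09, 0.89 and 1.15 for Lgmn+/+-IR and 0.77, 1.22 and 0.79 for Lgmn-/--IR, a difference of -0.12. Bcl11b minus Fezf2, both of layer 5 neurons projecting below the cortex, was 0.58, 1.85 and 2.78 on the log2 scale for Lgmn+/+-IR and 2.13, 0.69 and 0.26 for Lgmn-/--IR, so these deep layer genes did not keep a fixed ratio between libraries.

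Other layer genes were also counted between genotypes. Of 17 other upper layer genes, 0 passed the test in either direction, and the smallest adjusted p was 0.0741. The estimate was above 0 for 15, against 48.3% of all genes tested. The median log2 fold change was 0.13, against -0.01 over all genes tested. The estimates of the 17 genes ranged from -0.28 to 1.02. Of the 2 with the highest FPKM, Lamp5, a membrane protein of upper layer and some inhibitory neurons, had 0.13. The other, Mef2c, a transcription factor regulated by neuronal activity, had 0.01. Of 28 other deep layer genes tested, 0 passed the test and 18 were above 0, against 48.3% of all genes tested. The smallest adjusted p was 0.0842 and the median was 0.17. Pcp4, a calmodulin-binding protein of layer 5 and of striatal neurons, had -0.18, and Rprm, a gene of layer 6, had 0.02. The estimates of the 28 genes ranged from -0.54 to 0.74. All Lgmn-/--IR libraries were above all Lgmn+/+-IR libraries for 3 of the 17 and 5 of the 28, and below for 0 and 2. This held for 12.4% (above) and 13.3% (below) of all genes tested. In the 3 libraries with high striatal sums, 5 of the 17 upper layer genes were all lower and 3 all higher than in the other 3, while 1 of the 28 deep layer genes was lower and 4 higher. Over all genes tested these shares were 5.87% lower and 7.6% higher.

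Broad neuronal lists had medians near those of the layer lists. Of 10 excitatory neuron genes 0 passed the test and the median was 0.12, with Nrgn at -0.06 and Camk2a at 0.17. Of 18 pan-neuronal genes 0 passed and the median was 0.16, with Snap25 at 0.22 and Syp at 0.06. Of 14 inhibitory neuron genes, 2 rose in Lgmn-/--IR and 0 fell, against 1.65% and 1.68% of all genes tested, with a median of 0.13. Dlx1, a homeodomain factor of interneurons, rose from 33.7 ± 1.91 to 53.8 ± 7.37 CPM (SD, n = 3, log2 fold change 0.67, adjusted p = 0.0316 by edgeR). Npy, the neuropeptide Y of a class of interneurons, rose from 103 ± 9.29 to 165 ± 24.5 CPM (log2 fold change 0.68, adjusted p = 0.0395).

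Genes that pattern cortical areas had mostly estimates above 0. Of 15, 14 were above 0, against 48.3% of all genes tested, and the median was 0.34. Past an adjusted p of 0.05, 1 rose and 0 fell, against 1.65% and 1.68% of all genes tested. Bhlhe22, a factor of area identity in upper layers, was 35.9, 43.1 and 40.8 CPM in Lgmn+/+-IR and 53.6, 69.2 and 61.4 CPM in Lgmn-/--IR, so the genotypes did not overlap (log2 fold change 0.62, 95% interval 0.32 to 0.92, adjusted p = 0.0493). In the libraries with high striatal sums 4 of the 15 area genes were all lower and 1 all higher, against 5.87% and 7.6% of all genes tested.

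Markers of neighbouring regions were read as a check of the tissue sampled. Of the 18 striatal genes, 0 passed the test between genotypes and 3 were above 0, against 48.3% of all genes tested. The median was -0.58, with Penk at -0.30 and Ppp1r1b at -0.28. Of 12 hippocampal genes tested, 1 fell and 0 rose, against 1.68% and 1.65% of all genes tested, with a median of -0.21. That gene, Lct, was 3.66, 2.71 and 3.50 CPM in Lgmn+/+-IR and 1.33, 1.72 and 1.57 CPM in Lgmn-/--IR (log2 fold change -1.09, adjusted p = 0.0373). Of 8 thalamic genes 0 passed and 4 were above 0, against 48.3% of all genes tested. Their median was -0.07 and their estimates ranged from -0.84 to 0.56. The 2 with the highest FPKM were Calb2, at 0.56, and Rora, at 0.25. Calb2 was also counted in the hippocampal list. The summed thalamic level was 88.2 to 167 CPM in Lgmn+/+-IR and 135 to 177 CPM in Lgmn-/--IR, and the hippocampal sum 143 to 226 and 166 to 261 CPM, with overlap in both. For 3 of the 12 hippocampal genes (Lct, Dsp and Spink8) all Lgmn-/--IR libraries were below all Lgmn+/+-IR libraries, and for 0 above. Of all genes tested, 13.3% were below and 12.4% above in this way. Dsp had means of 1.81 and 0.286 CPM (log2 fold change -2.64, adjusted p = 0.0504 by edgeR). Spink8 had means of 1.16 and 0.392 CPM (log2 fold change -1.55, adjusted p = 0.0973).

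Some genes of other cells in the tissue passed the test between genotypes. Of all genes tested, 1.65% passed as higher and 1.68% as lower in Lgmn-/--IR. Of 9 oligodendrocyte genes, 5 fell in Lgmn-/--IR and 0 rose (median -0.53), among them the myelin genes Mobp (log2 fold change -1.12, adjusted p = 0.0033), Mog (-0.91) and Cnp (-0.68). Of 8 astrocyte genes, 1 rose and 0 fell (median 0.23), namely the water channel Aqp4, from 69.9 ± 3.78 to 103 ± 10.6 CPM (SD, n = 3). Of 8 microglial, 7 endothelial and 6 choroid plexus genes none passed the test, with medians of -0.14, 0.45 and -0.33. Values were -0.12 for C1qa, 0.60 for Ly6c1, 0.49 for Cldn5, 0.00 for Ttr and -0.66 for Clic6. Of the 7 endothelial genes, 6 were above 0, against 48.3% of all genes tested, and the lowest was at -0.86. The 5 red blood cell genes all rose, with a median of 6.66. Their part in the values of the layer genes was not tested beyond the removal of the red blood cell genes, after which 0 layer genes were called.

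**Figure D5:**
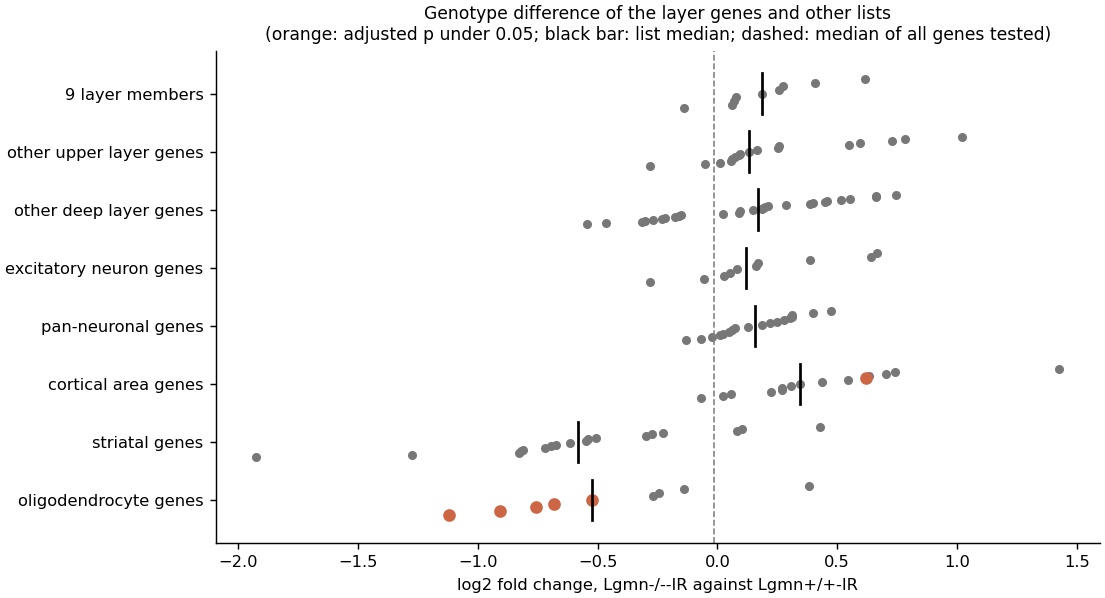
Log2 fold change of each gene, Lgmn-/--IR against Lgmn+/+-IR, for the layer genes and 7 other lists, with a black bar at each list's median, a dashed line at the median of all genes tested (-0.01) and orange points for an adjusted p under 0.05. No layer gene is orange, 5 oligodendrocyte genes and 1 area gene are, and striatal genes have a median of -0.58.

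The gene whose profile over the 6 libraries was nearest to each layer gene was found by the root mean square distance of mean-centred log2(CPM + 0.5). The nearest to Cux1 was Eif4g2 (distance 0.012), to Cux2 Nuak1 (0.059) and to Rasgrf2 Cerkl (0.038). The nearest to Rorb was 4930452B06Rik (0.039), to Etv1 Midn (0.035) and to Tle4 Tmem106a (0.042). Cerkl (0.56 to 0.90 CPM) and Tmem106a (0.47 to 1.35 CPM) had low levels, at which the added 0.5 narrows a profile. Their distances rest in part on it. Fezf2, Bcl11b and Foxp2, which varied most, had more distant neighbours, in Dnajc21 (0.072), Lpl (0.093) and Drp2 (0.15). For Bcl11b, Lpl was 19.2, 34.3 and 45.3 CPM in Lgmn+/+-IR and 41.9, 20.4 and 24.3 CPM in Lgmn-/--IR. With 6 libraries among 18345 genes such neighbours describe these libraries only.

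Counts and FPKM differed by gene. With log2(FPKM + 1) in place of counts, the log2 fold change turned from 0.07 to -0.044 for Rasgrf2 and from 0.06 to -0.017 for Tle4, and that of Cux1 went from 0.08 to 0.14, that of Cux2 from 0.41 to 0.27 and that of Foxp2 from 0.28 to 0.13. The ratio of count to FPKM, scaled for library, would be equal in all libraries if both came from the same reads and lengths. Its highest value was 1.01-fold its lowest for Fezf2 and Tle4, 1.04-fold for Rorb, 1.08-fold for Cux2, 1.11-fold for Rasgrf2 and 1.13-fold for Bcl11b, against a median of 1.06-fold over 16664 genes. It was wider for Cux1 (1.18-fold), Etv1 (1.24-fold) and Foxp2 (1.44-fold), and for Foxp2 only 7.71% of genes were wider. In all, 6 of the 9 genes were above the median. The ratio of mean levels, Lgmn-/--IR to Lgmn+/+-IR, was 1.31 in FPKM and 1.20 in CPM for Etv1, and 0.980 and 1.05 for Rasgrf2.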

How the data were processed

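Per the submitters' notes and the study's methods, the authors trimmed the reads (Trimmomatic 0.36), aligned them (HISAT2) and deposited an unnormalized count for each gene and library. The authors computed FPKM with StringTie and deposited it for the same genes. The submitters' processing notes name GRCm38, while the read counter and its strand setting are not given in the sources used here.

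Counts were normalized by TMM and tested with edgeR 4.0.16 in R 4.3.3 (filterByExpr by genotype, quasi-likelihood F-test on genotype alone, with Benjamini-Hochberg adjusted p over 18345 genes). Intervals are 95% and come from the F statistic. FPKM was tested with limma 3.58.1, on log2(FPKM + 1), as an alternative, a scale that understates fold changes of low genes, and DESeq2 1.42.0 was another. Reads carried no molecular identifiers and are not independent molecules. The script was tested on simulated data.

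All 9 members are named. Of each other list, genes past adjusted p under 0.05 are named (at most the 4 of smallest p), or, where none passed, the 2 of highest FPKM, with each member's nearest profile and Lgmn, and some genes that this rule names are not reported here. Slc17a7, Neurod2 and Emx1 were named after their values were seen. The members and lists were chosen with earlier results of these data known. Positions are from GENCODE M21 (9 of 9 members matched), and similar transcripts were sought with BLAST 2.17.0+.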

Additional observations from a re-analysis of the deposited data

How the results depend on the processing

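No layer gene was called in any of 20 alternative analyses. Of all genes 611 were called, against 1423 with DESeq2, 404 without a filter on low counts, 406 with at least 10 counts in every library, 150 with the replicate block and 223 to 500 when single libraries were left out, and 201 without the 3 libraries of highest striatal sum, where the lone wild-type library is assumed to vary like the others. The causes were not tested. The direction held in all 20 for Cux2 (0.23 to 0.57), Rorb (0.02 to 0.26), Etv1 (0.08 to 0.42) and Fezf2 (0.30 to 0.83). It turned for Cux1 under scaling to pan-neuronal genes (-0.080) and to Slc17a7 (-0.079), which move the median of all genes to -0.17. It turned for Rasgrf2 with FPKM (-0.044 and -0.045 at pseudocounts of 1 and 0.1), pan-neuronal scaling (-0.085), Slc17a7 scaling (-0.11), the striatal covariate (-0.013) and without Lgmn-/--IR replicate 2 (-0.040, the lowest of -0.040 to 0.18 with single libraries left out). It turned for Tle4 with FPKM (-0.017 and -0.022 at these pseudocounts), pan-neuronal scaling (-0.10), Slc17a7 scaling (-0.071) and without Lgmn-/--IR replicate 1 (-0.12, of a range to 0.28). For Bcl11b it turned without Lgmn+/+-IR replicate 3 (0.24, of a range from -0.59), Lgmn-/--IR replicate 2 (0.09), Lgmn-/--IR replicate 3 (0.0012) or the 3 libraries of highest striatal sum (0.33), and with the covariate (0.22). For Foxp2 it turned without Lgmn-/--IR replicate 1 (-0.25, of a range to 0.66) and without those 3 libraries (-0.062). The smallest adjusted p of any layer gene in any analysis was 0.113, for Etv1 with log2(FPKM + 1). The index of upper minus deep layers moved between -0.21 and 0.22 when a library was left out. The striatal covariate, the omission of the 3 libraries, the scaling to Slc17a7 and the index without Bcl11b and Foxp2 were chosen after the data were seen. The deviations of same-numbered libraries from their genotype's mean correlated at -0.30, -0.05 and -0.05. These 3 values gave no sign of pairing but are too few to settle whether same-numbered samples share a batch. With the replicate block 0 layer genes were called. The 3 libraries per genotype limit the precision, and the 95% intervals of the ratio of knockout to wild type are widest for Bcl11b (0.456 to 1.81), Foxp2 (0.615 to 2.38) and Fezf2 (0.976 to 2.41).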
